A study of Mus musculus with 6 samples.

Results

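Fatty acids are made, lengthened, desaturated and burned by separate sets of enzymes, and the genes of these enzymes were followed in oocytes of aged mice with and without oral aminophylline. The members were chosen by gene symbol: the fatty acid synthesis enzymes Fasn, Acaca, Acacb and Acly, the Elovl, Fads, Scd, Acsl, Cpt, Acad, Hadh and Acox families, Echs1, the Acaa and Eci genes, and Etfa, Etfb and Etfdh. The rule took 53 protein-coding genes of the 25631 genes listed, 17773 of which were protein coding. The rule itself used no values, but it was set with earlier results of these data known. FPKM, the unit of the values, is the number of sequenced fragments of a gene divided by its transcript length and by the size of the library. Of the 53 genes, 28 reached 1 FPKM in 3 or more of the 6 libraries and were tested.

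RNA was sequenced from oocytes that were freed by puncture of large antral follicles of ICR mice, an outbred stock, at an age of 14 months. All the mice had been injected with equine chorionic gonadotropin, which stimulates follicle growth, and all were naturally aged. The aminophylline group (n = 3 libraries) drank 4 mM aminophylline, a theophylline derivative that inhibits phosphodiesterases, for 1 week and plain water for the 3 weeks that followed. The control group (n = 3 libraries, labelled Aged and untreated) drank water without the drug, and no young mice were among the samples. How many mice and oocytes went into a library is not given in the sources used here, and no source says that the libraries came from separate mice. The p-values therefore measure only the spread between libraries, which may be technical.

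Library depth ranged from 14112341 fragments (control library 2) to 33641283 fragments (control library 1). The summed FPKM of 10 oocyte markers, among them Gdf9, Zp3 and Dppa3, lay between 17951 and 25607 in the controls and between 18910 and 22779 after aminophylline. The summed FPKM of 10 granulosa cell markers lay between 15.7 and 23.5 in the controls and between 17.3 and 22 after aminophylline, with 7 of the 10 under 1 FPKM in all libraries. Control library 1 stood apart in macrophage markers: 6 of the 8 listed were highest there, their sum was 163 FPKM against 82.7 to 103 in the other 5 libraries, and Lyz2 reached 66.4 FPKM there against 0 to 0.573 elsewhere. The difference did not touch all markers, since C1qb lay between 72.3 and 99.8 FPKM and Mrc1 between 1.41 and 1.74 FPKM in every library. C1qb made up most of the sum in the other 5 libraries. C1qa had 1.79 FPKM in control library 1 against 0 to 0.0302 elsewhere, and C1qc 14.8 against 0. The sum therefore understates how far control library 1 stood apart in the other markers.

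In fatty acid synthesis, Acly makes cytosolic acetyl-CoA, the acetyl-CoA carboxylases turn it into malonyl-CoA, and Fasn joins these units into a saturated chain. Elovl enzymes add further units to long chains, Scd and Fads enzymes insert double bonds, and Acsl enzymes attach coenzyme A so that a chain can be used. To be burned, a long chain enters the mitochondrion through Cpt1 and Cpt2, is shortened step by step by beta-oxidation, and passes electrons on through Etfa, Etfb and Etfdh. Oocytes carry lipid stores, and beta-oxidation is known to serve as an energy source during their maturation.

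Etfb and Echs1 had the highest levels per length of the 53 genes, and only 11 members averaged 10 FPKM or more. The summed FPKM of the 53 genes was 419, 416 and 456 in control libraries 1, 2 and 3, and 436, 453 and 462 in aminophylline libraries 1, 2 and 3. The summed levels of the groups overlapped. Genes placed by symbol in mitochondrial oxidation held 32.1% of this sum over all libraries, electron transfer genes 24.3%, elongases 20.4% and activating enzymes 10.9%. Enzymes of de novo synthesis held 0.828%. The ranking and these shares rest on the lengths behind the FPKM, which for some members differ from the annotation GENCODE. For Elovl1 the length was 4444 bases against 1811 for its longest GENCODE transcript, and for Etfa 9685 against 1392. By fragments over all libraries, Acsl3 (29215), Elovl1 (24167), Etfa (19794), Elovl5 (19118) and Elovl7 (17657) stood above Echs1 (14734) and Etfb (13734).

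**Figure D1:**
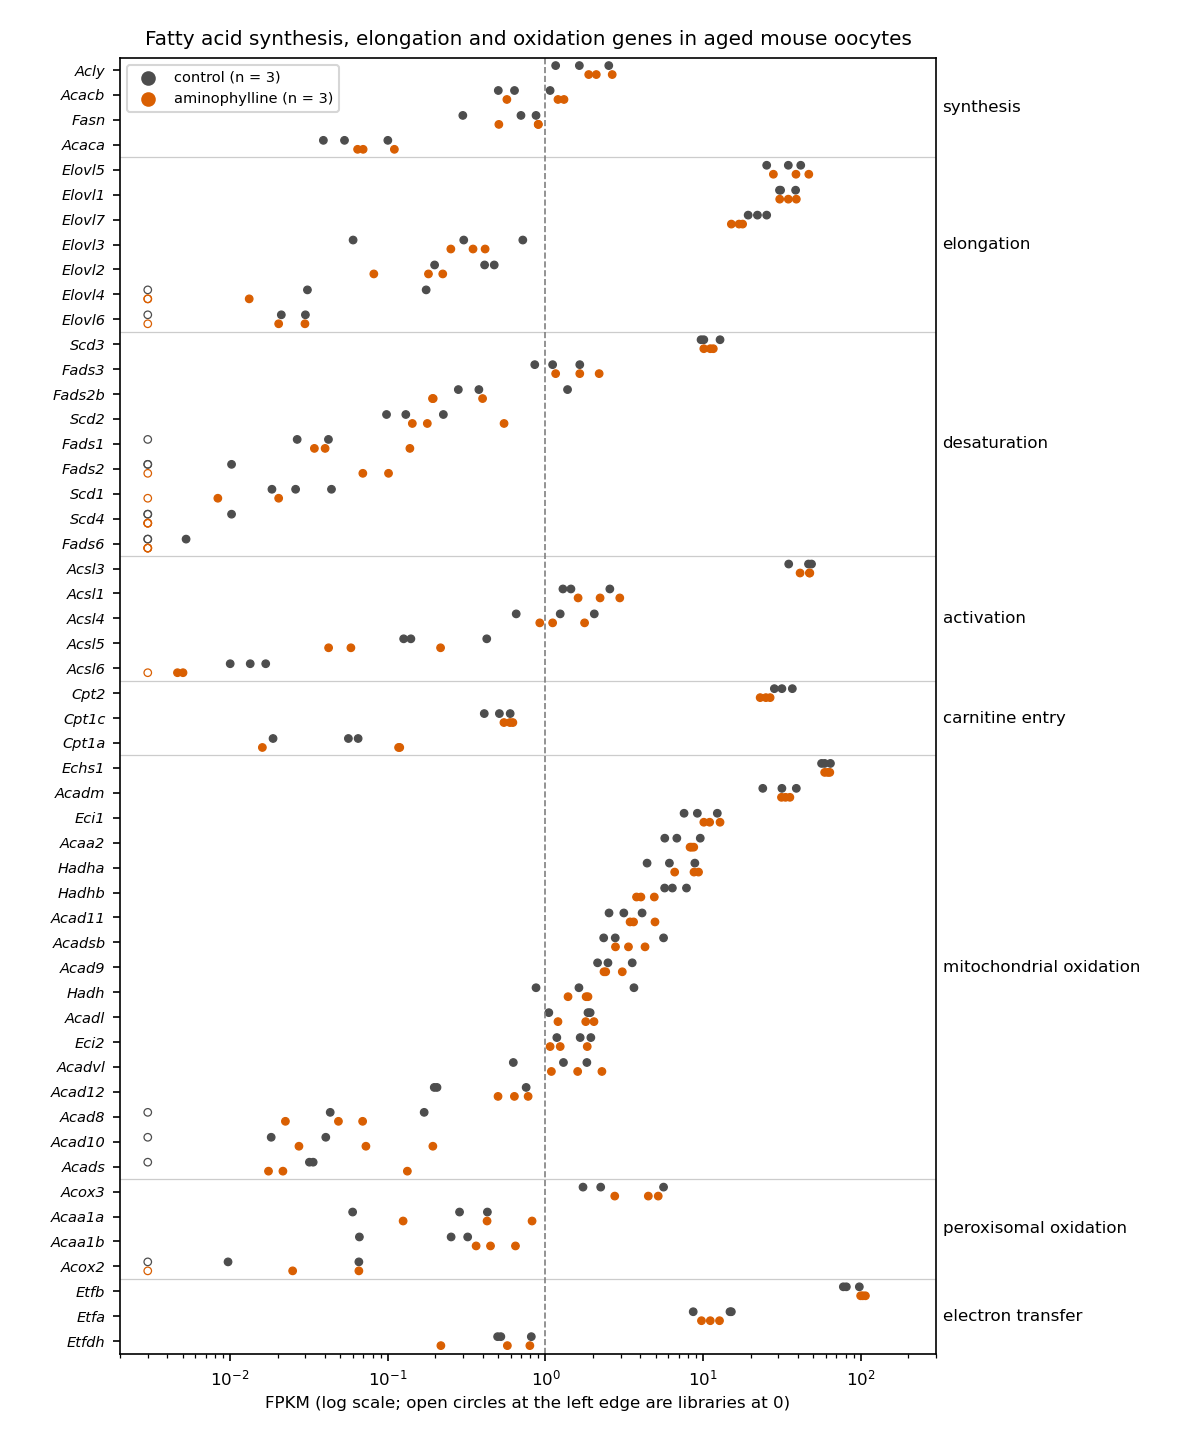
FPKM of the fatty acid genes (rows, grouped by role) on a log axis, with 1 point per library, 3 control libraries in grey and 3 aminophylline libraries in orange, and open circles for libraries at 0. Etfb, at 77.5 to 107 FPKM, and Echs1, at 56.4 to 64.2 FPKM, lie farthest to the right, and 24 genes lie left of the dashed line at 1 FPKM in all 6 libraries.

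The plot of the members by library shows that several enzyme families rested on few of their genes. Scd3 held 95.4% to 98.8% of the summed FPKM of the 4 Scd genes, and Scd1, Scd2 and Scd4 all stayed under 1 FPKM. Scd3 shares 6.69% of its 50-base windows with other transcripts, chiefly Scd1 and Scd2, and reads from these windows cannot be assigned with certainty. Acsl3 held 90.8% to 94.4% of the summed FPKM of the 5 Acsl genes. Cpt2 held 97.3% to 98.5% of the summed FPKM of the 3 Cpt genes, because Cpt1a had 2 to 18 fragments per library and Cpt1c had 0.409 to 0.621 FPKM. Cpt1b was not analysed here. Acadm, the medium-chain acyl-CoA dehydrogenase, held 63.8% to 78.5% of the summed FPKM of the 10 Acad genes. These shares are descriptions of level and were not tested between groups.

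The genes of the synthesis of new fatty acids were low in every library. Fasn, fatty acid synthase, lay between 0.299 and 0.901 FPKM, and Acaca, the cytosolic acetyl-CoA carboxylase, between 0.039 and 0.11 FPKM, so neither was tested. Acacb, the carboxylase bound to the mitochondrial surface, had 0.502, 0.636 and 1.07 FPKM in the controls and 0.569, 1.2 and 1.31 FPKM after aminophylline. Acly, ATP citrate lyase, had 1.64, 1.16 and 2.52 FPKM in the controls and 1.88, 2.1 and 2.65 FPKM after aminophylline. Both genes had overlapping groups, and neither difference exceeded the spread between libraries. The log2 difference, aminophylline minus control on the log2(FPKM + 1) scale, was 0.22 for Acacb (SE 0.214, limma adjusted p = 0.789) and 0.23 for Acly (SE 0.232, limma adjusted p = 0.79). In bulk libraries such as these, fewer cells of a type and less RNA per cell cannot be told apart.

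Among the elongases, Elovl1, Elovl5 and Elovl7 were present at 15.1 FPKM or more in all libraries, and Elovl2, Elovl3, Elovl4 and Elovl6 stayed under 1 FPKM. Elovl5, which lengthens polyunsaturated chains, had 34.7, 25.3 and 41.6 FPKM in the controls and 27.9, 38.8 and 46.8 FPKM after aminophylline. Elovl1, which makes very long saturated chains, had 30.5, 38.6 and 31 FPKM in the controls and 34.7, 39 and 30.6 FPKM after aminophylline. The groups of both genes overlapped, with log2 differences of 0.15 (SE 0.236) and 0.058 (SE 0.179). Elovl1 overlaps Cdc20 in the genome, which had 46.7 to 71.9 FPKM, and whether the counting used the strand is not given in the sources used here. Elovl7, an elongase of long saturated chains, had 22.1, 19.3 and 25.3 FPKM in the controls and 16.9, 17.8 and 15.1 FPKM after aminophylline. All 3 aminophylline libraries lay under the lowest control library. The log2 difference was -0.40 (SE 0.185, 95% interval -0.80 to 0.012), with an unadjusted p of 0.0559 and an adjusted p of 0.688 (limma). Leaving out a library moved it from -0.30 (without control library 3, unadjusted p 0.153) to -0.49 (without control library 2, unadjusted p 0.0227), and the adjusted p ranged from 0.234 to 0.999 over the alternatives (limma).

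Desaturation rested on Scd3, a delta-9 desaturase, with 9.7, 12.8 and 10.1 FPKM in the controls and 10.1, 11.1 and 11.6 FPKM after aminophylline. Fads3 had 0.855, 1.11 and 1.65 FPKM in the controls and 1.16, 2.19 and 1.65 FPKM after aminophylline. Neither gene separated the groups, with log2 differences of 0.012 (SE 0.198) for Scd3 and 0.27 (SE 0.223) for Fads3. Fads1 and Fads2, the desaturases of polyunsaturated chains, had at most 15 and 9 fragments in any library. Fads6 and Scd4 were above 0 in 1 library each. A count of 3 fragments, taken as the smallest measurable amount, corresponds to 0.0446 to 0.106 FPKM for a transcript of 2000 bases, and this floor covers counting error only.

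Among the activating enzymes, Acsl3, which serves lipid droplet growth, had 46.6, 34.9 and 48.7 FPKM in the controls and 41.2, 47.2 and 47.5 FPKM after aminophylline. Acsl1 had 1.45, 1.29 and 2.56 FPKM in the controls and 1.61, 2.22 and 2.96 FPKM after aminophylline. Acsl4, which prefers arachidonic acid, had 1.24, 0.652 and 2.04 FPKM in the controls and 0.92, 1.11 and 1.77 FPKM after aminophylline. All 3 genes had overlapping groups, and their log2 differences were 0.071, 0.25 and -0.00039. Acsl5 had 48 fragments in control library 1 and 4 to 18 in the other 5, and Acsl6 had at most 4 in any library. Of the 25 untested members, 6 were highest in control library 1 (Acsl5, Acsl6, Elovl2, Elovl4, Elovl6 and Fads2b). How many of all genes under the level for testing were highest there was not counted, so the 6 mark no trait of these members. Elovl6 had 6 fragments there and 5 in aminophylline library 1. Control library 1 had the most macrophage marker RNA, and the part of that RNA in these values was not tested.

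Cpt2, the carnitine acyltransferase of the inner mitochondrial membrane that hands long chains back to coenzyme A, was lower in every aminophylline library than in any control library. It had 31.6, 28.3 and 36.8 FPKM in the controls, from 2500, 939 and 2749 fragments. After aminophylline it had 25, 23 and 26.6 FPKM, from 1659, 1339 and 1913 fragments. The gap between the lowest control and the highest aminophylline library was small beside the range within the control group. The log2 difference was -0.36 (SE 0.176, 95% interval -0.74 to 0.031), with an unadjusted p of 0.0679 and an adjusted p of 0.688 (limma). Leaving out a library moved the difference of Cpt2 from -0.26 (without control library 3, unadjusted p 0.19) to -0.44 (without control library 2, the library of lowest depth, unadjusted p 0.0267), and the adjusted p ranged from 0.248 to 0.999 over the alternatives (limma). None of the 50-base windows of Cpt2 occurs in a transcript of another gene.

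**Figure D2:**
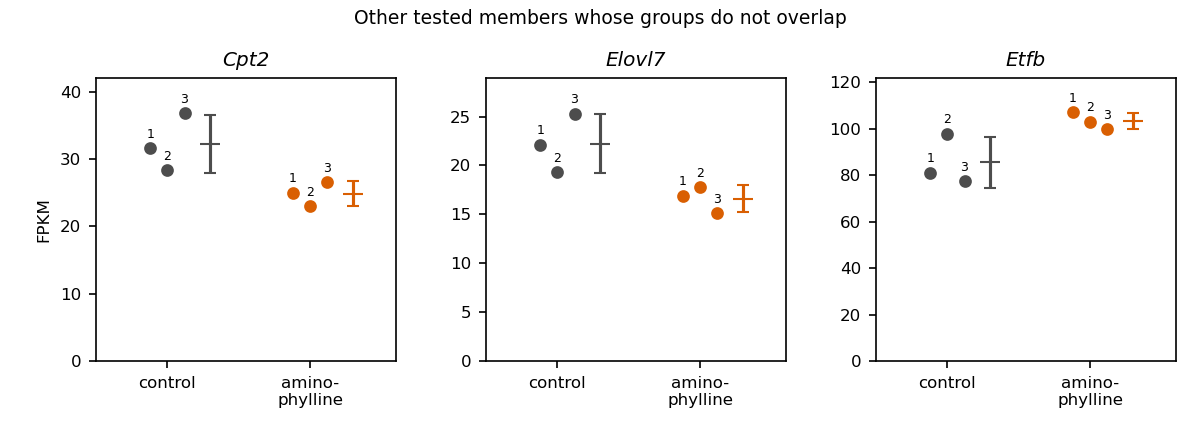
FPKM (vertical axes, starting at 0) of Cpt2, Elovl7 and Etfb in each library, numbered as in the labels, with the mean and the SD of each group (n = 3) beside the points. The 3 aminophylline libraries lie under all controls for Cpt2 (23 to 26.6 against 28.3 to 36.8) and Elovl7 (15.1 to 17.8 against 19.3 to 25.3), and above all controls for Etfb (99.8 to 107 against 77.5 to 97.9).

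For Cpt2 and Elovl7, whose groups separated in the plot of Cpt2, Elovl7 and Etfb, sequence before the gene is shown. Capitals mark GGGCGG (the GC box), TGACG (the core of the cAMP response element) and CCAAT, searched on both strands, so that their reverse complements are marked too. The stretches are from GRCm38.p6 and hold only bases outside GENCODE exons and outside the span that RefSeq gives the gene. The Cpt2 stretch, on the minus strand at chr4:107923611-107923839, holds 2 GC boxes. The Elovl7 stretch, on the plus strand at chr13:108214154-108214325, holds 1 GC box and 1 cAMP response element core.
Cpt2: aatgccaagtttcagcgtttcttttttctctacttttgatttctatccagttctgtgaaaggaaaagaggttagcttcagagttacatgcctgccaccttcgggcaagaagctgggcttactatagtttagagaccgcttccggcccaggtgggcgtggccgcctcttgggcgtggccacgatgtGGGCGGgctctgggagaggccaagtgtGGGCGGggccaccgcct
Elovl7: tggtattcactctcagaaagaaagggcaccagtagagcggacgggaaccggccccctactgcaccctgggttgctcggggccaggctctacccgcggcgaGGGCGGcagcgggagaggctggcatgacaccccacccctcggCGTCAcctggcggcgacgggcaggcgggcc

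Over the 46 members with an entry in the RefSeq promoter table, the 250 bases before the start given there held GGGCGG in 63%, against 32.9% of 27025 genes. TGACG was found in 23.9% of the members and 17.9% of all genes, and CCAAT in 43.5% and 34.5%. The full element TGACGTCA was found in 0 members and 1.6% of all genes, and the E-box CACGTG in 2.2% and 6%. The 27025 genes were not limited to protein-coding or expressed genes, so they are not matched to the members. Whether the members differ from matched genes was not tested. These are matches of letters in a fixed window, not sites of binding.

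The role of mitochondrial beta-oxidation took every Acad and Hadh gene by symbol, whatever its substrate. In this role 13 of the 17 members were tested, and Echs1, the short-chain enoyl-CoA hydratase, had the highest level. Echs1 had 56.4, 64.2 and 59 FPKM in the controls and 63.6, 61.8 and 59 FPKM after aminophylline. Its log2 difference was 0.039 (SE 0.153, 95% interval -0.30 to 0.38), and the libraries of both groups were mixed. Echs1 overlaps Paox in the genome, which had 3.49 to 5.61 FPKM. Acadm followed with 23.9 to 39 FPKM in the controls and 31.4 to 35.5 FPKM after aminophylline, and Eci1, which moves double bonds, with 7.57 to 12.3 and 10.1 to 12.8 FPKM. Acadl, Acadvl, Acad9, Acad11, Acadsb, Acaa2, Eci2 and Hadh all averaged under 10 FPKM and had overlapping groups, with log2 differences from -0.12 (Eci2) to 0.25 (Acadvl). Acads, Acad8, Acad10 and Acad12 stayed under 1 FPKM and were not tested.

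The mitochondrial trifunctional protein carries out the last steps of long-chain beta-oxidation. Hadha codes for the alpha subunit, which holds the hydratase and dehydrogenase activities, and Hadhb for the beta subunit, the thiolase. Hadhb had 5.7, 6.38 and 7.84 FPKM in the controls, from 1135, 533 and 1477 fragments. After aminophylline it had 4.03, 3.78 and 4.9 FPKM, from 674, 554 and 887 fragments. Every aminophylline library was lower than every control library. The log2 difference was -0.54 (SE 0.217, 95% interval -1.02 to -0.063), with an unadjusted p of 0.0299 and an adjusted p of 0.682 (limma), and the adjusted p ranged from 0.243 to 0.999 over the alternatives. Without control library 3 the difference was -0.43 and the unadjusted p 0.0825, without aminophylline library 1 it was -0.52 and 0.0856, and without aminophylline library 2 it was -0.48 and 0.109 (limma). Of the 50-base windows of Hadhb, 4.47% occur in other transcripts, chiefly Gm13910 and Gm9108.

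Hadha had 4.41, 6.11 and 8.86 FPKM in the controls and 6.6, 8.75 and 9.35 FPKM after aminophylline. These groups overlapped, since control library 3 was above aminophylline libraries 1 and 2. For Hadha the log2 difference was 0.34 (SE 0.259, 95% interval -0.23 to 0.91), with an unadjusted p of 0.216 and an adjusted p of 0.753 (limma). Leaving out a library moved it from 0.13 (without control library 1, unadjusted p 0.622 in limma) to 0.56 (without control library 3, unadjusted p 0.0404 and adjusted p 0.336 in limma), and the adjusted p ranged from 0.336 to 0.999 over the alternatives. The ratio of the FPKM of Hadha to that of Hadhb, a comparison chosen after the values were seen, was 0.774, 0.957 and 1.13 in the controls and 1.64, 2.32 and 1.91 after aminophylline. All 3 aminophylline ratios were above all control ratios, on average 2.05-fold (log2 difference 1.04, SD 0.273 in the controls and 0.252 after aminophylline, n = 3 each). The exact two-sided permutation test gave p = 0.1, which is the smallest p that 3 libraries against 3 can give. Leaving out each library in turn, the log2 difference of the ratio lay between 0.90 and 1.17. The ratio of another pair of partner subunits, Etfb to Etfa, was computed as well. It was 5.45, 11.3 and 5.15 in the controls and 9.7, 10.5 and 7.84 after aminophylline. The groups of that ratio overlapped, with a log2 difference of 0.44 and p = 0.4 in the exact permutation test.

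**Figure D3:**
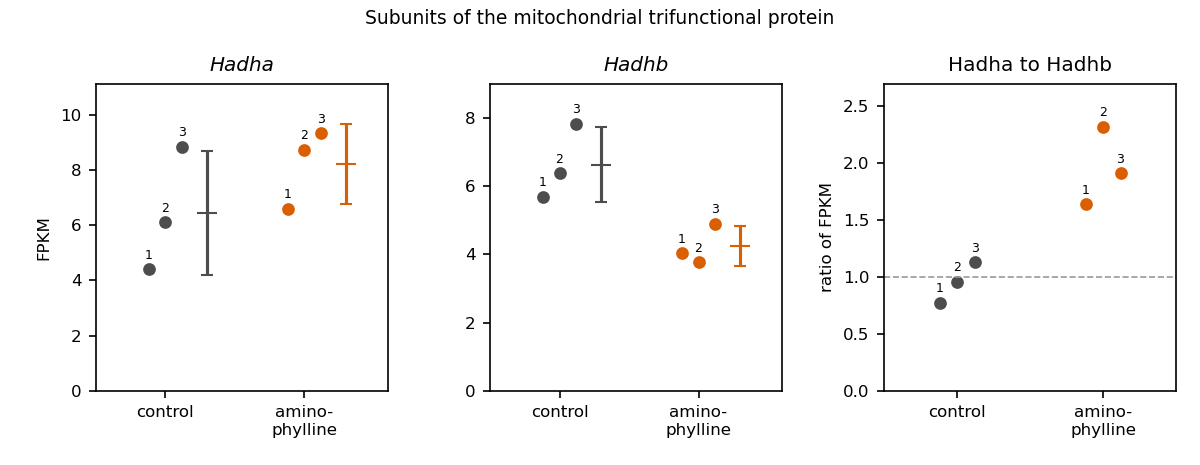
FPKM of Hadha and Hadhb and the ratio of their FPKM (vertical axes, starting at 0) in each library, numbered as in the labels, with the mean and the SD of each group (n = 3) beside the FPKM points. The ratio is 0.774 to 1.13 in the control libraries and 1.64 to 2.32 in the aminophylline libraries, on both sides of the dashed line at 1.

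The plot of both subunits sets the ratio beside the levels it was made from. The level of the ratio depends on the transcript lengths behind the FPKM, 2716 bases for Hadha and 5922 bases for Hadhb, but its difference between libraries does not. Both genes start from opposite strands of chromosome 5 with 272 bases between their RefSeq starts (chr5:30154981-30155252, GRCm38.p6). The 85 bases of this stretch that lie outside GENCODE exons, at chr5:30155163-30155247 on the plus strand, are shown because they lie between both starts. They hold 2 GC boxes, in capitals, and neither CCAAT nor TGACG.
Hadha-Hadhb: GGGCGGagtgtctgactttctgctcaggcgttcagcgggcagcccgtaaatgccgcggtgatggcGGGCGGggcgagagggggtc

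Peroxisomal oxidation starts with the acyl-CoA oxidases. Acox3, which acts on branched chains, had 1.73, 2.24 and 5.61 FPKM in the controls and 2.75, 4.49 and 5.19 FPKM after aminophylline. Control library 3 held the highest value of Acox3, and the groups overlapped. The log2 difference of Acox3 was 0.37 (SE 0.335, limma adjusted p = 0.772), the largest positive difference among the 28 tested members. Leaving out a library moved it from 0.12 (without control library 1, unadjusted p 0.747 in limma) to 0.76 (without control library 3, unadjusted p 0.0149 and adjusted p 0.297 in limma), and it was 0.22 without aminophylline library 3 and 0.24 without control library 2. Over the alternatives the adjusted p of Acox3 ranged from 0.297 to 0.999. Acaa1b, a peroxisomal thiolase under the level for testing, had 5, 8 and 23 fragments in the controls and 41, 25 and 25 after aminophylline. Its near copy Acaa1a had 4 to 18 and 7 to 50 fragments, and 46.2% of the 50-base windows of Acaa1b occur in other transcripts, chiefly Acaa1a, so the counts of this pair are uncertain.

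The electron transfer flavoprotein accepts electrons from the acyl-CoA dehydrogenases, with Etfa and Etfb as its subunits. Etfb had 81, 97.9 and 77.5 FPKM in the controls and 107, 103 and 99.8 FPKM after aminophylline. All 3 aminophylline libraries were above all controls, the nearest values being 97.9 and 99.8 FPKM. The log2 difference was 0.28 (SE 0.157, 95% interval -0.07 to 0.62), with an unadjusted p of 0.107 and an adjusted p of 0.721 (limma). Leaving out a library moved it from 0.21 (without control library 3, unadjusted p 0.24) to 0.38 (without control library 2, unadjusted p 0.0211), and the adjusted p ranged from 0.227 to 0.999 over the alternatives (limma). Etfa had 14.8, 8.65 and 15.1 FPKM in the controls and 11.1, 9.76 and 12.7 FPKM after aminophylline, with overlapping groups and a log2 difference of -0.15 (SE 0.24). The length behind the FPKM of Etfa, worked back from its values, was 9685 bases, against 1392 bases for its longest GENCODE transcript, so its level per length rests on that choice. Of the 50-base windows of Etfb, 67.3% occur in Gm45233. Etfdh, which passes the electrons to ubiquinone, lay between 0.217 and 0.813 FPKM and was not tested.

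Over the 28 tested members, 20 were higher and 8 lower after aminophylline. The median log2 difference was 0.09, against 0.10 over the 10340 tested genes, of which 64.8% were higher. No member passed an adjusted p of 0.05 in limma, and 0% of all tested genes did. Limma's voom on the recovered fragments called 0 as well. The smallest adjusted p was 0.682 among the members and 0.455 among all genes. At an unadjusted p under 0.05, 1 member was called, Hadhb, against 7.25% of all tested genes, 4.41% being higher and 2.84% lower. The 2 groups did not overlap in 1 member that was higher, Etfb, against 7.51% of all tested genes, and in 3 that were lower, Hadhb, Cpt2 and Elovl7, against 4.96%.

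**Figure D4:**
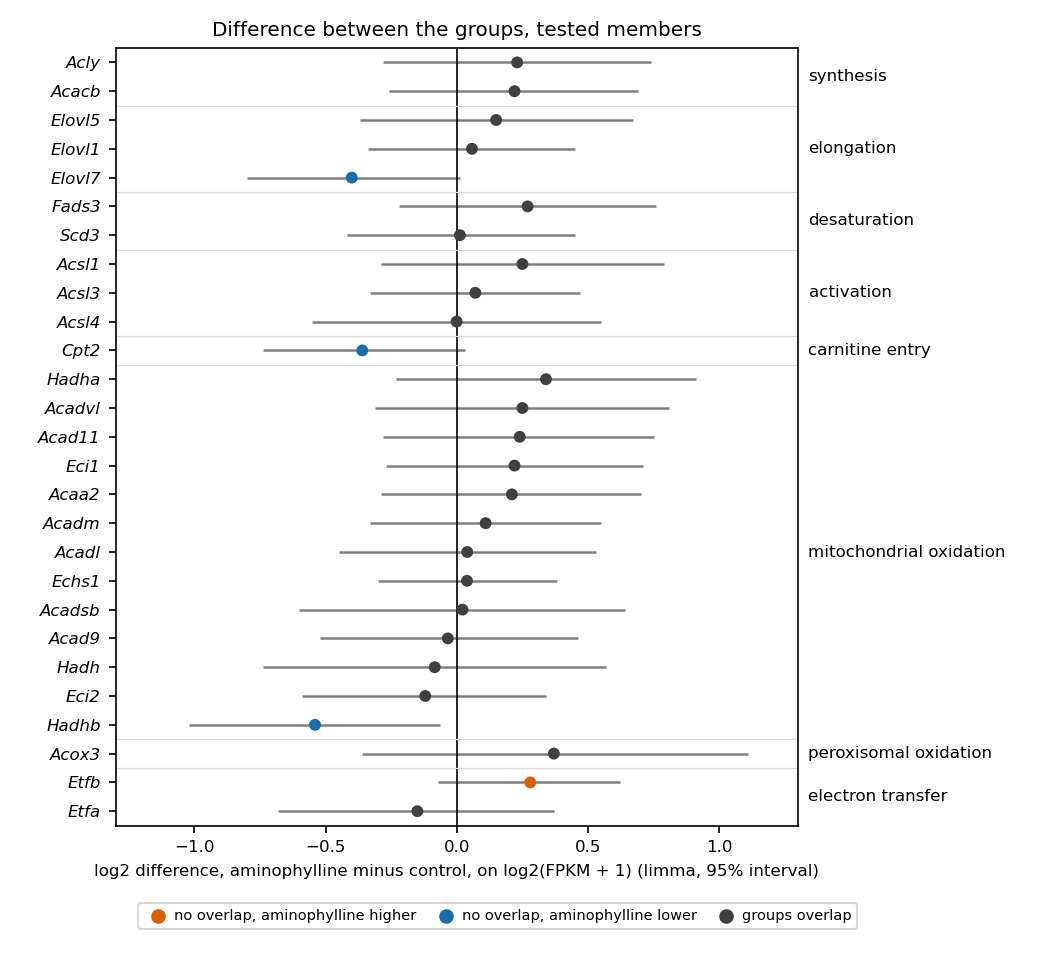
Log2 difference, aminophylline minus control on the log2(FPKM + 1) scale (horizontal axis), of the tested genes grouped by role, with 95% intervals from limma and colours for genes whose groups do not overlap. The differences run from -0.54 (Hadhb) to 0.37 (Acox3), and only the interval of Hadhb leaves out 0.

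The plot of the differences shows intervals much wider than most differences, with standard errors from 0.153 (Echs1) to 0.335 (Acox3). In only 4 of the 28 tested members did the 95% interval stay within 0.5 of 0 on the log2 scale. The remaining members could therefore differ by more than this without the test showing it. Of the 28 tested members, 19 were highest in control library 3 among the controls, and 18 were highest in aminophylline library 3 among the aminophylline libraries. Control library 2 was the lowest control in 14 members and control library 1 in 13. Such counts were not made over all tested genes, so they do not set the members apart from other genes.

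Genes that act beside the members were described from 6 lists, of which 91 genes were in the table and 52 were tested. At an unadjusted p under 0.05, 3 were higher and 1 lower, which is 7.69% of the 52 and close to the 7.25% of all tested genes. After adjustment 0 passed in limma, and 0 with voom. With the replicate number as a block, 8 were called (15.4%, beside 14.2% of all tested genes), the others being Cd36, Mlycd, Prkag1 and Scap. Of 9 tested genes of lipid droplets and lipolysis, 9 were higher, beside 64.8% of all tested genes, and their median log2 difference of 0.10 equalled that of all tested genes. Among them Plin3, a coat protein of lipid droplets, was called. Plin3 had 3.4, 5.05 and 7.69 FPKM in the controls and 9.63, 8.62 and 12.9 FPKM after aminophylline. The groups did not overlap. Plin3 differed by 0.87 on the log2 scale (SE 0.275, limma unadjusted p = 0.0088, adjusted p = 0.662), and its adjusted p ranged from 0.0569 (replicate block) to 0.999 over the alternatives.

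Among 9 tested genes of the carnitine shuttle and fatty acid uptake, 6 were higher and 3 lower, and Fabp5 and Mcat were called. Fabp5, a fatty acid binding protein, had 146, 225 and 157 FPKM in the controls and 253, 268 and 209 FPKM after aminophylline. Control library 2 was above aminophylline library 3, so the groups overlapped. Fabp5 differed by 0.48 on the log2 scale (SE 0.192, limma unadjusted p = 0.0283, adjusted p = 0.682). Its unadjusted p was over the threshold without control library 1 (0.107), control library 3 (0.0697), aminophylline library 1 (0.0798) or aminophylline library 2 (0.109), all from limma. Mcat, which loads malonyl groups for fatty acid synthesis inside the mitochondrion and thus does not take part in uptake, had 4.48, 7.17 and 8.58 FPKM in the controls and 11, 10.3 and 13.5 FPKM after aminophylline. The groups of Mcat did not overlap, and its log2 difference was 0.73 (SE 0.247, limma unadjusted p = 0.0129, adjusted p = 0.676). For Mcat the unadjusted p was 0.0516 without control library 1 and 0.0534 without aminophylline library 3 (limma).

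Among 11 tested genes of other steps of oxidation, 4 were higher and 7 lower, and Phyh was called. Phyh, which starts the breakdown of phytanic acid in peroxisomes, had 14.5, 8.56 and 13 FPKM in the controls and 5.41, 6.63 and 7.19 FPKM after aminophylline. All aminophylline libraries were lower than all controls. The log2 difference of Phyh was -0.79 (SE 0.237, limma unadjusted p = 0.00656, adjusted p = 0.661). None of the 6 tested genes of other steps of elongation, the 5 of mitochondrial fatty acid synthesis or the 12 regulators was called. Pecr, a peroxisomal reductase of the oxidation list, had 932 to 1122 FPKM in the controls and 1043 to 1262 FPKM after aminophylline, more than any of the 53 members, with overlapping groups.

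**Figure D5:**
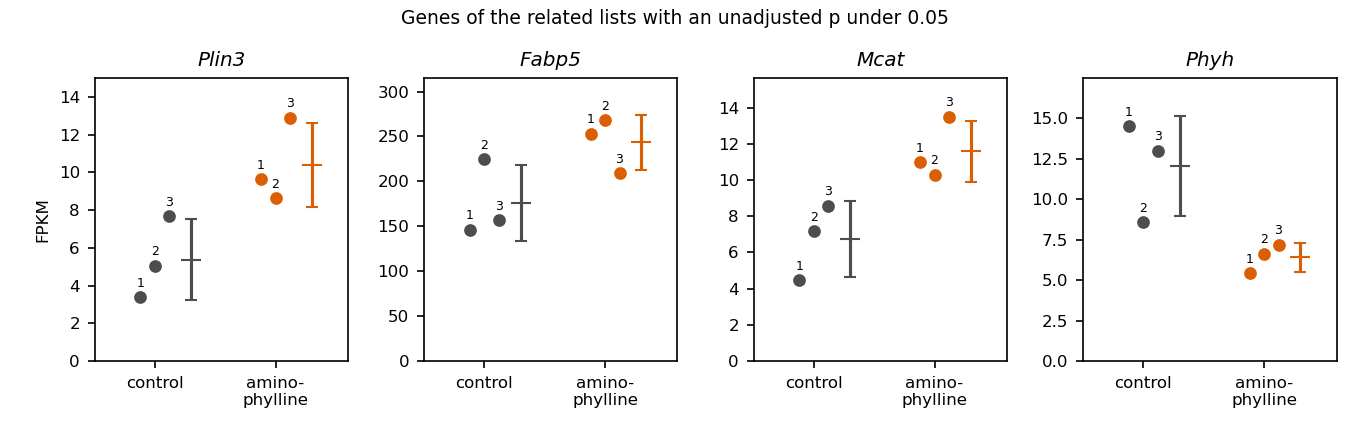
FPKM (vertical axes, starting at 0) of Plin3, Fabp5, Mcat and Phyh in each library, numbered as in the labels, with the mean and the SD of each group (n = 3) beside the points. The groups do not overlap in Plin3 (3.4 to 7.69 against 8.62 to 12.9), Mcat (4.48 to 8.58 against 10.3 to 13.5) and Phyh (8.56 to 14.5 against 5.41 to 7.19), and overlap in Fabp5.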

How the data were processed

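RNA of 6 oocyte libraries was analysed, 3 per group, with groups taken from the labels. The authors deposited FPKM per gene, which are fragments per gene divided by transcript length and library size, and the sums of the columns differ, so they were not scaled to one another. The submitters' processing notes name GRCm38 and mm10. The aligner, the counter, the annotation and the use of strand are not given in the sources used here. Fragments behind each FPKM were worked back from its ratios across libraries, which needs a gene above 0 in 2 or more libraries (22583 genes). Only genes whose values came out whole were kept, so the 100% within 0.001 of a whole number follows from that choice. The recovered fragments summed to 99.565% (control library 1) to 99.627% (aminophylline library 1) of the totals. The totals ranged from 14112341 to 33641283, and 3 fragments were taken as the floor.

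Groups were compared with limma 3.58.1 in R 4.3.3 (two-sided, trend on mean expression) on log2(FPKM + 1) for genes reaching 1 FPKM in 3 or more of the 6 libraries. A fold change on this scale understates the change of low genes. Adjusted p-values are Benjamini-Hochberg values over the 10340 tested genes. The study states a two-tailed unpaired test, and its counterpart, the unmoderated linear model, was an alternative, as were another pseudocount, other filters, 3 scalings, the replicate block, voom on the recovered fragments and leaving out each library. The Hadha to Hadhb ratio was added after the values were seen, and the Etfb to Etfa ratio was computed beside it. The code was tested on simulated data.

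The pairing rests on the numbers 1 to 3 of the labels, and no source names mice or a preparation shared by a number. Deviations from the group means, over the tested genes, correlated between the libraries of a number at 0.138, 0.14 and 0.552 for numbers 1, 2 and 3. Correlations between libraries of different numbers were not computed, so these values cannot show whether the numbers mark a pairing.

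Values in every library are given for members whose groups did not overlap or whose unadjusted p was under 0.05, for the highest member of each role, and for the tested members of roles with few of them. Hadha was added as the partner of Hadhb, and Acaa1b, Pecr and Acsf3 after their values were seen. Members and lists were chosen with earlier results of these data known. Promoters, positions and transcripts came from RefSeq (GRCm38.p6) and GENCODE. The values of 1 member are not reported here, and it is left out of the plots but not of the counts.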

Additional observations from a re-analysis of the deposited data

How the results depend on the processing

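No member passed the adjusted threshold in any of the 9 alternatives with all libraries or in the 6 fits that left out a library. At an unadjusted p under 0.05, 1 member was called as reported, and 4 with no filter, 3 with quantile normalization, 3 with median centring, 3 with the unmoderated linear model and 2 with voom, the additions being among Cpt2, Elovl7 and Acaa1b. Leaving out a library gave 0 to 4: 1 (Hadhb) without control library 1, the library with the most macrophage marker RNA, 0 without aminophylline library 1 or 2, 2 without control library 3 (Acox3 and Hadha, with Hadhb lost) and 4 without control library 2 (Hadhb, Cpt2, Elovl7 and Etfb). Of the related lists, 4 genes were called as reported, 1 with the unmoderated linear model, 8 with the replicate block, and 2 to 8 when a library was left out, 2 without control library 1, 7 without control library 2 and 8 without control library 3. The replicate block changed no other call of a member. Over all genes it raised the adjusted calls from 0 to 47 and the unadjusted ones from 750 to 1467. Without a filter 1404 of all 25631 genes passed the unadjusted p. Among the 10340 tested genes, 875 passed it after quantile normalization and 783 after median centring. In the unmoderated linear model 677 of them passed the unadjusted p, and in voom 761 passed it. Of the genes passing it, 60.8% were higher as deposited, 49% after scaling to a common sum, 39.7% after quantile normalization and 35.9% after median centring, and the median of all genes moved from 0.10 to 0.06, 0.01 and 0.013.

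The direction was the same in all alternatives run for 17 of the 28 tested members, among them Hadhb, Cpt2, Elovl7, Etfb and Hadha. Small differences turned for the other 11. With a pseudocount of 0.1 Acsl4 was 0.034. After scaling to a common sum Acadsb was -0.015, Echs1 -0.0037 and Scd3 -0.027. After quantile normalization Acadl was -0.074, Acadsb -0.084 and Scd3 -0.055. After median centring Acadl was -0.041, Acadsb -0.06, Acsl3 -0.011, Echs1 -0.043, Elovl1 -0.024 and Scd3 -0.07. When a library was left out, the differences ranged from -0.15 to 0.12 for Acad9, -0.12 to 0.18 for Acadl, -0.07 to 0.27 for Acadm, -0.17 to 0.32 for Acadsb, -0.075 to 0.16 for Acsl3, -0.22 to 0.22 for Acsl4, -0.0018 to 0.09 for Echs1, -0.026 to 0.16 for Elovl1, -0.037 to 0.35 for Elovl5, -0.38 to 0.27 for Hadh and -0.059 to 0.12 for Scd3. The cause was not tested. Depth limits the low members: 9 of the 25 untested ones had at most 10 fragments in every library.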

Other observations

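Acsf3, which makes malonyl-CoA inside the mitochondrion and thus supplies the substrate of Mcat, lay under the level for testing, with 21, 12 and 10 fragments in the controls and 44, 44 and 48 after aminophylline. Its groups did not overlap (0.122 to 0.331 FPKM against 0.607 to 0.692 FPKM). It was singled out after its values were seen and was tested only in the alternative with no filter. There it was 1 of 6 genes of the related lists with an unadjusted p under 0.05 in limma, beside 1404 of all 25631 genes. Other untested genes of these lists also had groups without overlap, Ppargc1b and Rxrb being higher and Prkag2 lower. Of the tested genes of mitochondrial fatty acid synthesis, Mecr, the enoyl reductase that closes the cycle, had 28.8 to 44.7 FPKM in the controls and 36 to 41.2 FPKM after aminophylline, and Ndufab1, the acyl carrier protein, had 217 to 355 and 278 to 325 FPKM, both with overlapping groups. Oxsm, the condensing enzyme, lay between 0.0805 and 0.287 FPKM.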
